A study of Mus musculus with 12 samples.

Results

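The collagen genes of the mouse were followed in 3T3-L1 cells, a fibroblast line that serves as a model of the preadipocyte because hormones turn it into lipid-storing cells. Members were all rows of the count table whose symbol has the form Col, a type number, the letter a and a chain number, such as Col1a1. There were 42 of them among 16414 genes, and 26 passed the filter on low counts, against 11703 genes in all. Col13a1 and Col25a1 have symbols of the same form and were not analysed here. All 12 libraries came from fibroblasts grown on collagen-coated plates and transfected for 48 h with 20 nM of a mimic. The miR-335-5p mimic is a synthetic copy of that microRNA, and the non-targeting mimic (NT mimic) is its control. Afterwards all cells received insulin at 200 nM, IBMX, rosiglitazone and dexamethasone at 250 nM for 3 days. The 4 groups of 3 libraries were day 6 after the miR-335-5p mimic, day 6 after the NT mimic, day 3 after the miR-335-5p mimic and day 3 after the NT mimic. Values of cells given each mimic are called under miR-335-5p and under the NT mimic. Between the days the medium held insulin alone for 2 days and no added hormone for 1 day, so that time and the withdrawal of these agents cannot be told apart. The labels call day 6 cells adipocytes and day 3 cells preadipocytes, and do not say whether replicates were separate cultures, so that a p-value here reflects only how far these libraries spread, part of which may be technical.

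Collagens are secreted proteins in which chains wind around each other as a triple helix, and each gene encodes one alpha chain. Fibrillar collagens (types I, III and V among them) pack into the banded fibrils of connective tissue. Type IV forms the sheet-like network of basement membranes, the layer that surrounds each fat cell in adipose tissue, and type VI forms beaded filaments between that layer and the fibrils. FACIT collagens sit on the surface of fibrils, multiplexins are basement membrane collagens that carry sugar chains, and transmembrane collagens stay anchored in the cell membrane. During adipogenesis the matrix of a fibroblast is known to give way to one with more basement membrane.

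Total counts lay between 17690656 and 18936779 per library. CPM are counts scaled to a common library size after TMM normalisation. After a mean CPM or a ratio, ± gives the SD of 3 libraries, and after a log2 change it gives the standard error of the fit. The median log2 change of all 11703 genes was 0.02 for day 6 against day 3 under miR-335-5p and 0.03 under the NT mimic. Of all genes tested, 18.2% rose and 16.5% fell between the days under miR-335-5p, and 18.8% rose and 16.7% fell under the NT mimic. These shares stand beside the marker counts that follow. Of 8 tested fat cell markers 2 rose (Adipoq and Cfd) and 1 fell (Cidec) under either mimic. Fabp4, the fatty acid binding protein of adipocytes, was at 3865 ± 1107 against 3373 ± 228 CPM under miR-335-5p and 3627 ± 1070.3 against 3421 ± 292 CPM under the NT mimic (day 6 first), whereas Adipoq, the gene of adiponectin, rose to day 6 by log2 3.98 under miR-335-5p and 3.85 under the NT mimic. Of 7 tested markers of preadipocytes and fibroblasts, 4 rose and 0 fell between the days with either mimic. The 8 listed genes of that kind summed to 2881 to 3552 CPM at day 6 against 1635 to 1973 CPM at day 3 under miR-335-5p, and 3211 to 3499 against 1661 to 2031 CPM under the NT mimic. Vim held most of these sums, at 2318 ± 116 against 1474 ± 140 CPM under miR-335-5p and 2394 ± 234 against 1527 ± 163 CPM under the NT mimic. Pdgfra, Thy1 and Ly6a were not called. Markers of myofibroblasts and smooth muscle, of which 2 of 4 tested genes rose with either mimic, summed to 32.9 to 56.7 CPM at day 6 against 8.82 to 18.1 CPM at day 3 under miR-335-5p, and 36.8 to 55.4 against 10.2 to 20.7 CPM under the NT mimic. Acta2, smooth muscle actin, was among them. Chondrocyte and bone markers had 1 rise in 4 tested genes, that of Ibsp, a low gene. Sox9 was at 74.6 ± 37.3 against 44.3 ± 16.9 CPM under miR-335-5p and 78.4 ± 40.6 against 42.2 ± 15.4 CPM under the NT mimic. Runx2 was at 29.4 ± 8.10 against 18.5 ± 1.24 CPM under miR-335-5p and 28.8 ± 6.44 against 18.2 ± 2.12 CPM under the NT mimic. Sox9 and Runx2 were not called, nor was Alpl, whose fitted change was below 0. Acan and Matn1, which define cartilage, were at 0 in all libraries. Krt8 and Krt18, keratins of simple epithelia, rose with either mimic, while Cdh1, the cadherin of epithelial cells, was at 0 in all but 1 library. Of 4 endothelial markers Kdr was at 0 throughout and 1, Pecam1, passed the filter. It stood at 0.706 ± 0.134 against 0.138 ± 0.123 CPM under miR-335-5p. Its log2 changes of 2.32 under miR-335-5p (adjusted p = 0.0121) and 1.99 under the NT mimic (adjusted p = 0.0277) missed the threshold. Of 4 macrophage markers 1, Cd68, passed the filter. Its log2 changes of 2.55 under miR-335-5p (adjusted p = 0.0249) and 2.00 under the NT mimic (adjusted p = 0.0568) were not called. The part of these cell type markers in the collagen changes was not tested, and in bulk RNA fewer cells of a type and less RNA per cell cannot be told apart.

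Collagen transcripts made up 2.85% to 3.73% of all counts, without TMM scaling, at day 6 and 2.24% to 2.64% at day 3. Summed over the 42 genes, they reached 29352 ± 2445 CPM at day 6 against 25921 ± 2357 CPM at day 3 under miR-335-5p, and 30624 ± 4086 against 25743 ± 2708 CPM under the NT mimic. These scaled sums overlapped between the days, at 27429 to 32103 against 23415 to 28095 CPM under miR-335-5p. Under the NT mimic they were 27494 to 35246 against 23161 to 28562 CPM. The distance between the days in the total thus depends on the scaling. Nearly all of this came from 3 classes, and the order of the fibrillar and basement membrane classes was turned round between the days. The fibrillar genes held 46.9% of the collagen CPM at day 6 against 17.9% at day 3 under miR-335-5p, and 48.3% against 17.6% under the NT mimic. The basement membrane genes held 18.4% at day 6 against 46.4% at day 3 under miR-335-5p, and 18.02% against 46.5% under the NT mimic. The beaded filament genes of type VI held 33.5% against 34.9% under the miR-335-5p mimic and 32.4% against 35.2% under the NT mimic.

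**Figure D1:**
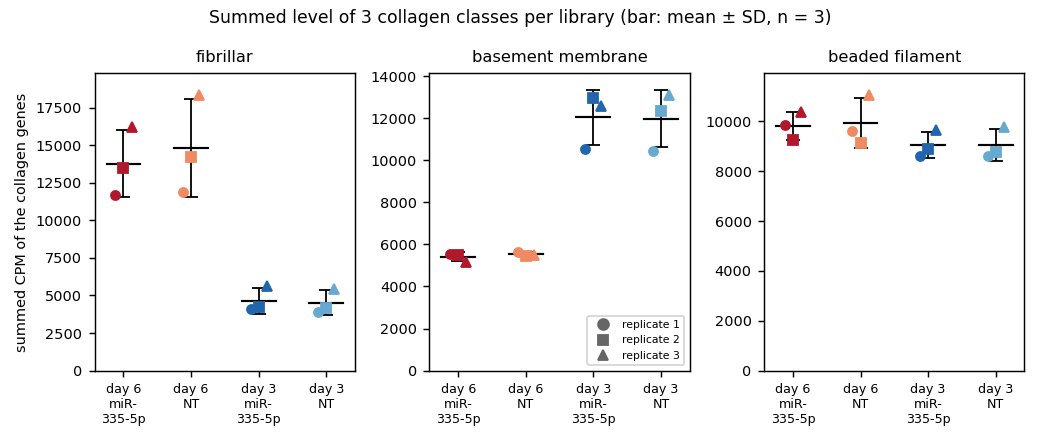
Summed CPM (vertical axis, from 0) of the fibrillar, basement membrane and beaded filament collagen genes in each of the 12 libraries, with a symbol for each replicate number and a bar for the mean ± SD of 3 libraries. The fibrillar sum lay between 11704 and 18316 CPM in the day 6 libraries and between 3928 and 5648 CPM in the day 3 libraries, and the basement membrane sum had the opposite order.

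In CPM per kilobase of merged exons, the scale on which genes can be compared, Col6a1 led the day 6 libraries and Col4a1 the day 3 libraries. The group means were 821 and 829 CPM per kilobase for Col6a1 at day 6 with the miR-335-5p and the NT mimic, and 1096 and 1080.4 for Col4a1 at day 3. With the longest annotated transcript as the length, Col3a1 led at day 6 (1063 and 1141, against 877 and 886 CPM per kilobase for Col6a1), and Col4a1 remained first at day 3. The order at the top of the day 6 libraries therefore depends on the gene length used. At the other end, 6 of the 26 genes averaged under 3 CPM over the 12 libraries, namely Col12a1, Col9a3, Col8a1, Col28a1, Col17a1 and Col23a1, with Col15a1 next at 3.92 CPM.

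**Figure D2:**
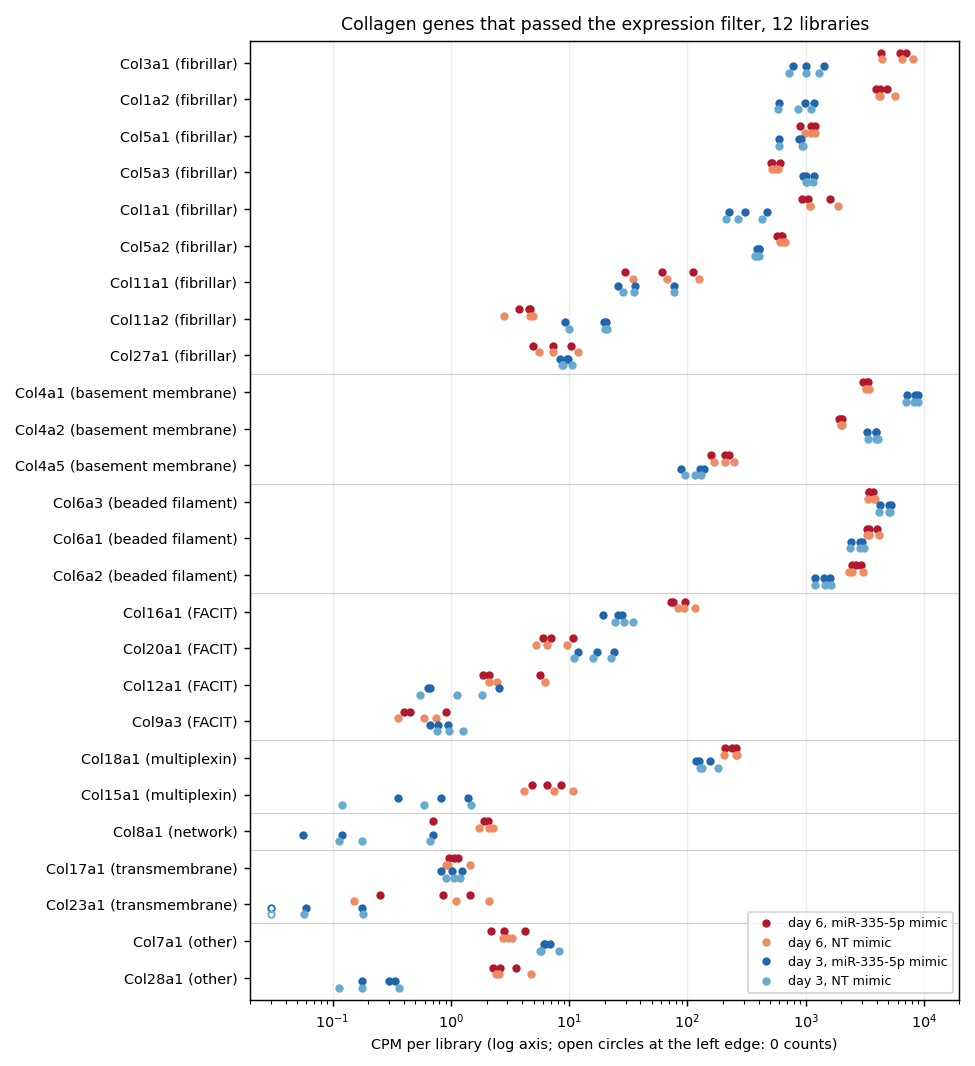
CPM of the 26 collagen genes that passed the filter (log axis), 1 point per library, grouped by class, with the groups in separate colours and open circles for 0 counts. Col3a1, Col4a1 and Col6a3 exceed 1000 CPM at one day at least while Col9a3 stays between 0.356 and 1.27 CPM, and the days are apart for 20 of the 26 genes under miR-335-5p and for 22 under the NT mimic.

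The comparison of day 6 with day 3 asks how collagen expression moves as the cells differentiate. Under miR-335-5p 9 of the 26 genes rose and 6 fell, and under the NT mimic 11 rose and 5 fell (by the quasi-likelihood test of edgeR, with calls at an adjusted p below 0.01). Among all genes tested, 34.7% were called under miR-335-5p (18.2% higher and 16.5% lower) and 35.6% under the NT mimic (18.8% higher and 16.7% lower). The collagen share was 57.7% (34.6% higher, 23.1% lower) under miR-335-5p and 61.5% (42.3% higher, 19.2% lower) under the NT mimic. The median log2 change of the 26 genes was 0.57 under miR-335-5p and 0.71 under the NT mimic. In all, 14 genes were called with both mimics and had the same direction in both, Col4a5 and Col8a1 were called only in the NT libraries, and Col6a3 only in the miR-335-5p libraries. The difference of the day changes between the mimics was tested and called for 0 of the 26 genes. With replicate numbers as a block, which removes the shifts shared by libraries of one number, 23 genes were called with either mimic, 16 higher and 7 lower, while 51.6% of all genes were called under miR-335-5p (27% higher, 24.7% lower) and 51.9% under the NT mimic (27.5% higher, 24.3% lower). With a block within each day 24 genes (16 higher, 8 lower) were called under miR-335-5p, against 64.7% of all genes (33.2% higher, 31.5% lower), and 23 (16 higher, 7 lower) under the NT mimic, against 65.1% (33.9% higher, 31.2% lower). DESeq2 without a block tested 30 collagen genes and called 18 (11 higher, 7 lower) under miR-335-5p, against 37.5% of all genes (19.5% higher, 18% lower), and 21 (14 higher, 7 lower) under the NT mimic, against 38% (19.9% higher, 18.1% lower). DESeq2 with the replicate block called 24 (17 higher, 7 lower) under miR-335-5p, against 47.6% of all genes (24.8% higher, 22.8% lower), and 25 (18 higher, 7 lower) under the NT mimic, against 46.4% (24.4% higher, 22% lower). Libraries of the 2 days did not overlap for 20 of the 26 genes under miR-335-5p (56.5% of all genes tested) and for 22 under the NT mimic (59.6%).

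**Figure D3:**
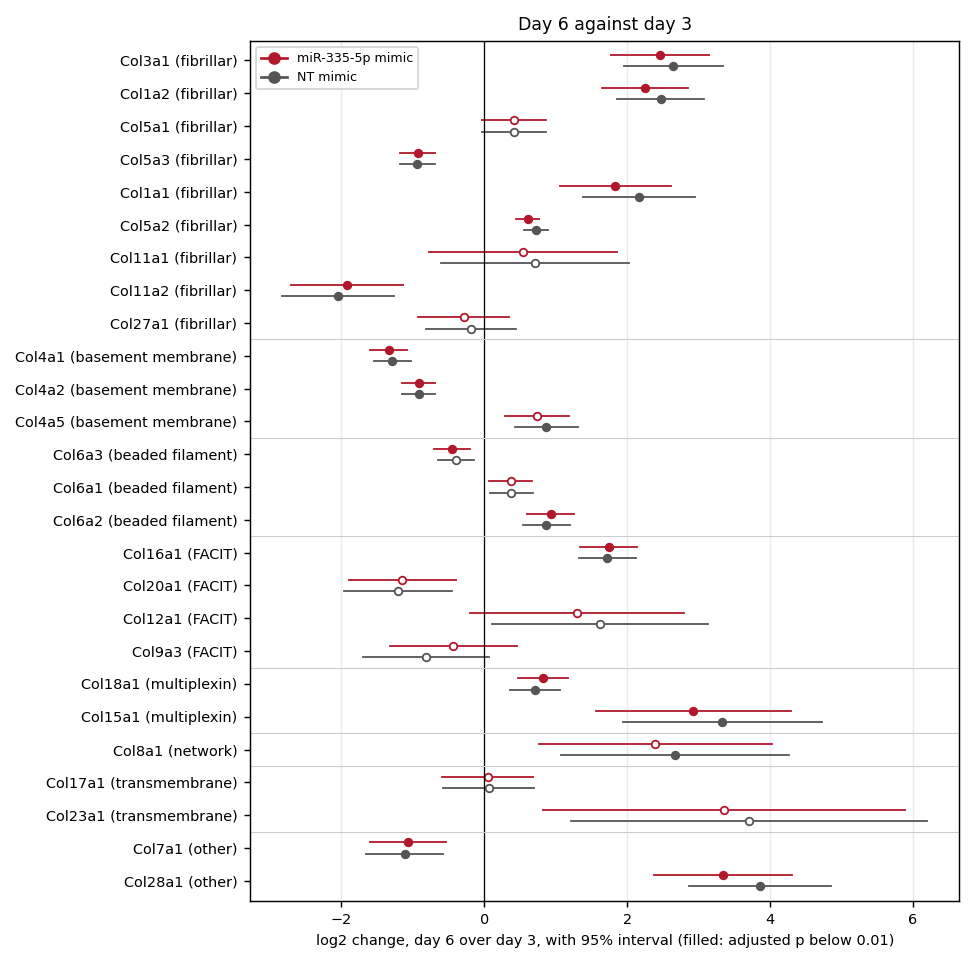
Fitted log2 change of day 6 over day 3 (horizontal axis) with its 95% interval for the 26 collagen genes, miR-335-5p mimic above NT mimic, filled where the adjusted p was below 0.01. Col3a1, Col1a2 and Col1a1 lie to the right of 0, Col4a1, Col4a2, Col5a3 and Col11a2 to the left, and the intervals of the 2 mimics overlap for every gene drawn.

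Among the fibrillar genes, the chains of types I and III rose most. Col3a1, whose product forms homotrimers in reticular fibres, had 4372, 6258 and 7122 CPM at day 6 against 776, 1010.0 and 1441 CPM at day 3 under miR-335-5p, and 4414, 6488 and 8136 CPM at day 6 against 723, 1012 and 1310.3 CPM at day 3 under the NT mimic. Every day 6 library lay above every day 3 library, and the log2 change was 2.46 ± 0.31 under miR-335-5p (adjusted p = 8.51e-05) and 2.64 ± 0.32 under the NT mimic (adjusted p = 5.43e-05). Col1a2, the second chain of type I collagen, had 4261, 3936 and 4897 CPM at day 6 against 998, 598 and 1168 CPM at day 3 under miR-335-5p, and 4158, 4289 and 5685 CPM at day 6 against 869, 580.1 and 1107 CPM at day 3 under the NT mimic. Here too the days were apart, with log2 changes of 2.24 ± 0.27 under miR-335-5p (adjusted p = 6.12e-05) and 2.47 ± 0.28 under the NT mimic (adjusted p = 3.27e-05). Col1a1, which supplies 2 of the 3 chains of type I collagen, had 1048, 929 and 1599 CPM at day 6 against 308, 225 and 469 CPM at day 3 under miR-335-5p, and 1097, 1097 and 1889.7 CPM at day 6 against 269, 211 and 432 CPM at day 3 under the NT mimic. Its lowest day 6 library was still above its highest day 3 library, and the log2 change was 1.84 ± 0.35 under miR-335-5p (adjusted p = 0.00136) and 2.16 ± 0.36 under the NT mimic (adjusted p = 0.000497). These 3 genes were named by the study for the effect of the mimic in these samples, which makes them no independent choice. Per kilobase of merged exons, the ratio of Col1a1 to Col1a2 was 0.510 ± 0.0940 at day 6 against 0.685 ± 0.0904 at day 3 under miR-335-5p, and 0.538 ± 0.0797 against 0.671 ± 0.0777 under the NT mimic. With the longest transcript as the length it was 0.243 ± 0.0448 at day 6 against 0.326 ± 0.0431 at day 3 under miR-335-5p, and 0.256 ± 0.0380 against 0.320 ± 0.0370 under the NT mimic, and the days overlapped under both mimics.

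Type V collagen, which starts fibrils and limits their width, went in both directions. Col5a2 had 576, 617 and 629 CPM at day 6 against 406, 391 and 400.5 CPM at day 3 under miR-335-5p, and 607, 639.7 and 670.0 CPM at day 6 against 401, 374 and 386 CPM at day 3 under the NT mimic. The libraries of a day lay close together, and the rise was log2 0.61 ± 0.07 under miR-335-5p (adjusted p = 6.1e-05) and 0.72 ± 0.08 under the NT mimic (adjusted p = 1.72e-05). Col5a3, a less common type V chain, had 513, 522 and 609 CPM at day 6 against 947, 1010.3 and 1181 CPM at day 3 under miR-335-5p, and 556, 516 and 589.6 CPM at day 6 against 1019.6, 999.99 and 1161 CPM at day 3 under the NT mimic. It fell in every library of day 6 relative to day 3, with log2 changes of -0.93 ± 0.11 under miR-335-5p (adjusted p = 5.08e-05) and -0.94 ± 0.11 under the NT mimic (adjusted p = 4.84e-05). Col5a1, the main chain, had 896, 1111 and 1193 CPM at day 6 against 593, 921 and 882 CPM at day 3 under miR-335-5p, and 997, 1119 and 1202 CPM at day 6 against 598, 953 and 939 CPM at day 3 under the NT mimic. The days overlapped under miR-335-5p and were apart under the NT mimic. Its log2 changes of 0.42 ± 0.20 under miR-335-5p (adjusted p = 0.108) and 0.41 ± 0.20 under the NT mimic (adjusted p = 0.11) did not pass, but with the replicate block the adjusted p was 0.00165 under miR-335-5p and 0.0014 under the NT mimic. Because the Col5a1 row overlaps antisense transcripts in the annotation used here, and no strand setting was given in the sources used here, its reads cannot be told apart from theirs. Col15a1 likewise overlaps an antisense gene, and Col3a1, Col20a1 and Col7a1 each overlap an annotated gene on the same strand.

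Of the remaining fibrillar genes, Col11a2 fell. Its CPM was 3.74, 4.59 and 4.68 at day 6 against 9.17, 19.6 and 20.7 CPM at day 3 under miR-335-5p, and 2.80, 4.62 and 4.91 CPM at day 6 against 10.1, 20.0 and 20.8 CPM at day 3 under the NT mimic. No day 6 value reached a day 3 value, and the log2 change was -1.92 ± 0.36 under miR-335-5p (adjusted p = 0.001) and -2.04 ± 0.36 under the NT mimic (adjusted p = 0.000692). The partner chain Col11a1 ranged over 29.4 to 127 CPM over the day 6 libraries and 26.1 to 76.8 CPM over the day 3 libraries, with a log2 change of 0.54 ± 0.60 under miR-335-5p (adjusted p = 0.479) and 0.70 ± 0.60 under the NT mimic (adjusted p = 0.349). With the replicate block the adjusted p was 0.00318 under miR-335-5p and 0.000522 under the NT mimic, and with the block within each day it was 3.65e-07 under miR-335-5p and 5.95e-09 under the NT mimic. Col27a1, a fibrillar chain known from cartilage, had 4.95 to 11.95 CPM over the day 6 libraries and 8.40 to 10.6 CPM over the day 3 libraries and passed in neither comparison. It did not pass with the replicate block either, and with a block within each day it was called under miR-335-5p only (adjusted p = 0.00699, against 0.0466 under the NT mimic). Col2a1, the main collagen of cartilage, and Col24a1 had at most 2 and 1 counts in a library.

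The major basement membrane genes fell. Col4a1, which with Col4a2 forms the common type IV heterotrimer, had 3380.3, 3276 and 3040.1 CPM at day 6 against 7149.9, 8883 and 8498 CPM at day 3 under miR-335-5p, and 3469, 3214 and 3240.0 CPM at day 6 against 7013, 8308 and 8871 CPM at day 3 under the NT mimic. All day 6 libraries lay below all day 3 libraries, with log2 changes of -1.34 ± 0.12 under miR-335-5p (adjusted p = 5.92e-06) and -1.29 ± 0.12 under the NT mimic (adjusted p = 8.15e-06). Col4a2 had 2007, 2032 and 1899.7 CPM at day 6 against 3313, 3949 and 3954 CPM at day 3 under miR-335-5p, and 1993, 2033 and 1988 CPM at day 6 against 3353, 3921 and 4089 CPM at day 3 under the NT mimic. It too was lower at day 6 without overlap, and its log2 changes were -0.92 ± 0.10 under miR-335-5p (adjusted p = 3.58e-05) and -0.92 ± 0.10 under the NT mimic (adjusted p = 3.39e-05). The fall of Col4a1 was the larger of the pair. The ratio of Col4a1 to Col4a2 per kilobase of merged exons was 1.45 ± 0.0405 at day 6 against 1.94 ± 0.0491 at day 3 under miR-335-5p, and 1.46 ± 0.0726 against 1.89 ± 0.0351 under the NT mimic, without overlap of the days.

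Col4a1 and Col4a2 lie back to back and their transcripts start 21 bases apart on opposite strands in the RefSeq annotation of GRCm38.p6, so the windows from 250 bases before to 50 bases after each start share 78 bases. That stretch, chr8:11312777-11312854 on the plus strand, is shown because it lies at the start of both genes that fell together, and its capitals mark GGGCGG, the core of the GC box.
Shared stretch of Col4a1 and Col4a2: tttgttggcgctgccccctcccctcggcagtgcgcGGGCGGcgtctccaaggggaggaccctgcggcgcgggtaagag
GGGCGG or its reverse complement CCGCCC stood in 16 of the 24 RefSeq promoter windows matched to 22 of the 26 tested genes (66.7%), against 35.7% of all 32851 windows. TATAAA (either strand) stood in 12.5% of the collagen windows against 13.6% of all, and CCAAT (either strand) in 41.7% against 37.4%. The 32851 windows also hold those of genes not tested here, so these shares compare unlike sets. The collagen windows are not all separate. Col4a1 and Col4a2 share a match, and Col6a2 and Col18a1 each have a further window. These are matches of letters only. The gene pair overlaps in the annotation on opposite strands, and reads in the overlap cannot be assigned without the strand setting.

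The other type IV genes behaved differently from this pair. Col4a5, a chain of the networks found in kidney and other tissues, had 158, 206 and 227 CPM at day 6 against 88.0, 129 and 137 CPM at day 3 under miR-335-5p, and 166, 208 and 246 CPM at day 6 against 94.8, 116 and 129 CPM at day 3 under the NT mimic. Its days did not overlap and the log2 change was 0.74 ± 0.20 under miR-335-5p (adjusted p = 0.0102) and 0.87 ± 0.20 under the NT mimic (adjusted p = 0.00406), so that it passed under the NT mimic only, and with the replicate block the adjusted p was 1.34e-06 under miR-335-5p and 4.08e-07 under the NT mimic. The call in the NT libraries was lost when NT replicate 1 or 2 of day 3, or NT replicate 2 or 3 of day 6, was left out (adjusted p up to 0.0192), and a call in the miR-335-5p libraries appeared without replicate 1 of day 6 under miR-335-5p or NT replicate 1 or 3 of day 6 (adjusted p down to 0.00516). Relative to Col4a1, the level of Col4a5 per kilobase of merged exons was 0.0682 ± 0.0156 at day 6 against 0.0159 ± 0.00214 at day 3 under miR-335-5p, and 0.0699 ± 0.0156 against 0.0156 ± 0.000604 under the NT mimic. Col4a6, its neighbour on the X chromosome, had 4, 6 and 7 counts at day 6 under miR-335-5p, 2, 5 and 12 under the NT mimic, and 0 in all day 3 libraries. Col4a3 and Col4a4 had no more than 1 count in any library.

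Type VI collagen is built from an alpha 1, an alpha 2 and an alpha 3 chain, and is abundant in fat. The genes of these chains did not move together. Col6a2 had 2669, 2455 and 2948 CPM at day 6 against 1433, 1209 and 1600.1 CPM at day 3 under miR-335-5p, and 2341, 2469 and 3073 CPM at day 6 against 1474, 1205 and 1640.0 CPM at day 3 under the NT mimic. It rose without overlap of the days, by log2 0.93 ± 0.15 under miR-335-5p (adjusted p = 0.00044) and 0.87 ± 0.15 under the NT mimic (adjusted p = 0.00067). Col6a1 had 3444, 3328 and 4014 CPM at day 6 against 2906, 2437 and 3003 CPM at day 3 under miR-335-5p, and 3446, 3279 and 4174 CPM at day 6 against 2901, 2393 and 3093 CPM at day 3 under the NT mimic. The days were apart, but its log2 changes of 0.37 ± 0.14 under miR-335-5p (adjusted p = 0.0431) and 0.38 ± 0.14 under the NT mimic (adjusted p = 0.0392) did not pass, while with the replicate block the adjusted p was 0.000775 under miR-335-5p and 0.000664 under the NT mimic. Col6a3, the longest chain, had 3724, 3472 and 3411 CPM at day 6 against 4282, 5254 and 5035 CPM at day 3 under miR-335-5p, and 3829, 3377 and 3800.5 CPM at day 6 against 4217, 5185 and 5048 CPM at day 3 under the NT mimic. Day 6 lay below day 3 with both mimics, and the log2 change was -0.46 ± 0.12 under miR-335-5p (adjusted p = 0.00634) and -0.39 ± 0.12 under the NT mimic (adjusted p = 0.0142). It was thus called under miR-335-5p only, and with the block its adjusted p was 0.00185 under miR-335-5p and 0.00494 under the NT mimic. Without replicate 2 or 3 of day 3 or of day 6 under miR-335-5p, or NT replicate 3 of day 3, its call ended (adjusted p up to 0.0286), and without replicate 1 of day 3 with either mimic it was called in the NT libraries (adjusted p down to 0.00757).

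The chain ratios of type VI differed between the days. Col6a3 over Col6a2 per kilobase of merged exons was 0.9201 ± 0.0997 at day 6 against 2.43 ± 0.517 at day 3 under miR-335-5p, and 0.984 ± 0.142 against 2.38 ± 0.541 under the NT mimic. The ratio of Col6a1 to Col6a2 was 2.54 ± 0.0751 at day 6 against 3.75 ± 0.159 at day 3 under miR-335-5p, and 2.63 ± 0.145 against 3.70 ± 0.102 under the NT mimic, and neither ratio overlapped between the days. With the longest transcript as the length, Col6a3 over Col6a2 was 0.643 ± 0.0696 at day 6 against 1.70 ± 0.361 at day 3 under miR-335-5p, and 0.687 ± 0.0988 against 1.66 ± 0.378 under the NT mimic. On that length Col6a1 over Col6a2 was 1.60 ± 0.0473 at day 6 against 2.36 ± 0.1004 at day 3 under miR-335-5p, and 1.66 ± 0.0912 against 2.33 ± 0.0640 under the NT mimic, so the size of both ratios depends on the length used. Col6a1 and Col6a2 are neighbours in the annotation, as are Col3a1 and Col5a2, and in both neighbouring pairs the 2 log2 changes were positive.

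Among the FACIT genes, Col16a1 rose. Its product is found near fibrils and basement membranes in skin and other tissues. It had 72.8, 76.0 and 96.1 CPM at day 6 against 26.0, 19.5 and 27.8 CPM at day 3 under miR-335-5p, and 83.3, 93.1 and 115 CPM at day 6 against 29.3, 24.4 and 34.6 CPM at day 3 under the NT mimic. Day 6 was above day 3 throughout, with log2 changes of 1.74 ± 0.18 under miR-335-5p (adjusted p = 1.83e-05) and 1.72 ± 0.18 under the NT mimic (adjusted p = 1.81e-05). Col20a1 had 5.29 to 10.9 CPM over the day 6 libraries and 11.1 to 24.04 CPM over the day 3 libraries, and its log2 changes of -1.14 ± 0.34 under miR-335-5p (adjusted p = 0.0159) and -1.21 ± 0.34 under the NT mimic (adjusted p = 0.0123) missed the threshold. With the replicate block the adjusted p of Col20a1 was 1.26e-06 under miR-335-5p and 8.82e-07 under the NT mimic, and without 1 of 3 day 3 libraries (replicate 1 or 3 under miR-335-5p, NT replicate 1) it was called in the NT libraries, and without the first of these in the miR-335-5p libraries (adjusted p down to 0.00771). Col12a1, a FACIT collagen of tendon and other dense tissue, had 1.86 to 6.26 CPM over the day 6 libraries and 0.544 to 2.57 CPM over the day 3 libraries and changes of 1.3003 ± 0.68 under miR-335-5p (adjusted p = 0.133) and 1.62 ± 0.69 under the NT mimic (adjusted p = 0.0696). The block brought its adjusted p to 0.000231 under miR-335-5p and 5.71e-05 under the NT mimic. Col9a3, which overlaps an antisense gene, had 0.356 to 0.906 CPM over the day 6 libraries and 0.671 to 1.27 CPM over the day 3 libraries and was called in no fit with edgeR.

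Both multiplexins rose. Col18a1, whose C-terminal fragment is endostatin, had 204 to 262 CPM over the day 6 libraries and 118 to 181 CPM over the day 3 libraries. Its log2 change was 0.83 ± 0.16 under miR-335-5p (adjusted p = 0.00127) and 0.71 ± 0.16 under the NT mimic (adjusted p = 0.0031), and the call in the NT libraries was lost without NT replicate 1 or 2 of day 3 or NT replicate 1 or 3 of day 6 (adjusted p up to 0.0171). Col15a1, a basement membrane collagen, was low at day 3, with 8.54, 4.90 and 6.44 CPM at day 6 against 1.40, 0.360 and 0.821 CPM at day 3 under miR-335-5p, and 10.8, 4.13 and 7.47 CPM at day 6 against 1.48, 0.587 and 0.121 CPM at day 3 under the NT mimic. The days did not overlap, and the log2 change was 2.93 ± 0.62 under miR-335-5p (adjusted p = 0.00242) and 3.33 ± 0.63 under the NT mimic (adjusted p = 0.00122). In the miR-335-5p libraries its call ended without replicate 2 or 3 of day 3 with that mimic (adjusted p up to 0.0123).

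Some low genes also passed. Col28a1, a short collagen with von Willebrand factor domains known from nerve, had 2.27, 2.62 and 3.52 CPM at day 6 against 0.336, 0.300 and 0.176 CPM at day 3 under miR-335-5p, and 2.54, 2.39 and 4.75 CPM at day 6 against 0.114, 0.176 and 0.363 CPM at day 3 under the NT mimic. Its day 3 libraries held only 2 to 6 counts, and the log2 change was 3.34 ± 0.44 under miR-335-5p (adjusted p = 9.35e-05) and 3.86 ± 0.45 under the NT mimic (adjusted p = 4.21e-05). Col8a1, a network-forming collagen of vessels and the cornea, had 2.07, 0.707 and 1.91 CPM at day 6 against 0.0559, 0.120 and 0.704 CPM at day 3 under miR-335-5p, and 2.29, 1.74 and 2.08 CPM at day 6 against 0.114, 0.176 and 0.665 CPM at day 3 under the NT mimic. The lowest day 6 library of the miR-335-5p mimic was only just above the highest of day 3, and the log2 change was 2.40 ± 0.74 under miR-335-5p (adjusted p = 0.019) and 2.67 ± 0.73 under the NT mimic (adjusted p = 0.00996). That call in the NT libraries sat at the threshold and was lost without 1 library in 8 of the 12 cases (adjusted p up to 0.0449), namely replicate 2 of day 3 and replicates 1 and 3 of day 6 under miR-335-5p, NT replicates 1 and 2 of day 3 and all 3 NT replicates of day 6. In the miR-335-5p libraries it was gained without replicate 3 of day 3 with that mimic (adjusted p = 0.00371), and with the block the adjusted p was 0.00256 under miR-335-5p and 0.000754 under the NT mimic. Col7a1, which forms the anchoring fibrils that fix epithelium to the tissue below, fell. It had 4.19, 2.17 and 2.82 CPM at day 6 against 6.21, 6.90 and 6.16 CPM at day 3 under miR-335-5p, and 3.31, 2.73 and 3.04 CPM at day 6 against 5.63, 5.81 and 8.28 CPM at day 3 under the NT mimic. The days were apart, and the log2 change was -1.07 ± 0.24 under miR-335-5p (adjusted p = 0.0035) and -1.12 ± 0.24 under the NT mimic (adjusted p = 0.00265). Its call ended under miR-335-5p without replicate 2 or 3 of either day with that mimic (adjusted p up to 0.0151), and under the NT mimic without NT replicate 3 of day 3 or NT replicate 2 or 3 of day 6 (up to 0.0137).

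Of the transmembrane genes, Col17a1, a component of hemidesmosomes, stood at 0.916 to 1.44 CPM over the day 6 libraries and 0.821 to 1.23 CPM over the day 3 libraries, and its log2 changes were 0.05 ± 0.29 under miR-335-5p (adjusted p = 0.91) and 0.06 ± 0.29 under the NT mimic (adjusted p = 0.877). Col23a1 had 5, 17 and 29 counts at day 6 against 0, 1 and 3 at day 3 under miR-335-5p, and 3, 22 and 39 against 1, 0 and 3 under the NT mimic. Its log2 change was 3.35 ± 1.16 under miR-335-5p (adjusted p = 0.0308) and 3.71 ± 1.14 under the NT mimic (adjusted p = 0.0178), and with the replicate block the adjusted p was 0.000297 under miR-335-5p and 0.000108 under the NT mimic. Without NT replicate 1 of day 6 it was also called in the NT libraries without the block (adjusted p = 0.00371).

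The libraries of one replicate number deviated together, and for the collagen genes these shifts were large. The test of replicate numbers 1, 2 and 3, over all 12 libraries with the group in the fit, called 13 of the 26 collagen genes (50%), against 18.7% of all genes tested. Without 1 library this count was 9 to 14. By class, 6 of 9 fibrillar genes, 2 of 3 type VI genes, 3 of 4 FACIT genes, 1 of 3 type IV genes and 1 of 2 transmembrane genes were called, and neither multiplexin. What a number stands for is not stated in the labels.

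The lowest p was that of Col11a1, the minor fibrillar chain that starts cartilage fibrils. It had 29.4, 61.3 and 111 CPM at day 6 against 26.1, 35.8 and 76.8 CPM at day 3 under miR-335-5p, and 34.7, 67.9 and 127 CPM at day 6 against 28.4, 35.5 and 76.8 CPM at day 3 under the NT mimic, in the order of replicate numbers 1, 2 and 3. Number 3 was the highest and number 1 the lowest in all 4 groups, with log2 0.71 for number 2 over 1 and 1.69 for number 3 over 1 (adjusted p = 2.69e-06). For this gene the libraries of the 2 days overlapped under either mimic. Col3a1 had the same order in all 4 groups, with log2 0.49 for number 2 over 1 and 0.84 for number 3 over 1 (adjusted p = 1.29e-05), and so did Col20a1, with log2 0.40 for number 2 over 1 and 0.94 for number 3 over 1 (adjusted p = 3.97e-05), Col4a5, with log2 0.39 for number 2 over 1 and 0.54 for number 3 over 1 (adjusted p = 0.000106), and Col11a2, with log2 0.83 for number 2 over 1 and 0.89 for number 3 over 1 (adjusted p = 0.000744). Col12a1 went the other way. Its number 1 libraries were the highest in all 4 groups, at 5.66 and 6.26 CPM at day 6 with the miR-335-5p and NT mimics and 2.57 and 1.82 CPM at day 3, with log2 -1.36 for number 2 over 1 and -1.67 for number 3 over 1 (adjusted p = 8.43e-05). Col1a1, Col1a2, Col6a1 and Col6a2 were highest in number 3 in all 4 groups, and lowest in number 2 in 3, 3, 4 and 3 of them. Of these, Col1a1 had log2 -0.24 for number 2 over 1 and 0.67 for number 3 over 1 (adjusted p = 1.26e-05), and Col6a1 had log2 -0.16 for number 2 over 1 and 0.16 for number 3 over 1 (adjusted p = 0.00625). The other genes called were Col23a1, Col5a1 and Col16a1. In contrast Col4a1, Col4a2, Col6a3 and Col5a2, all abundant, did not pass (adjusted p = 0.612, 0.281, 0.667 and 0.734).

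**Figure D4:**
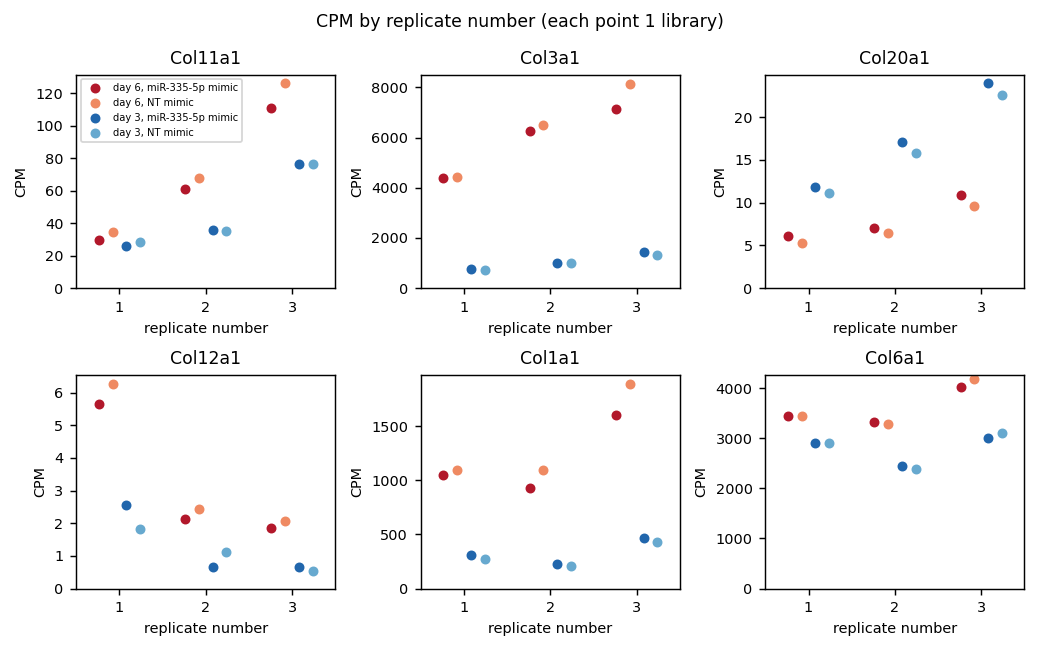
CPM (vertical axis, from 0) of 6 collagen genes against the replicate number, 1 point per library, coloured by group. Replicate number 3 is the highest in all 4 groups for Col11a1, Col3a1, Col20a1, Col1a1 and Col6a1, and number 1 for Col12a1.

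The comparison of the mimics asks whether added miR-335-5p changes collagen expression. MicroRNAs bind messenger RNA mainly through their seed, bases 2 to 8, and sites in the 3′ UTR lower the amount or the translation of the target. The mature mouse sequence from RefSeq (GRCm38.p6, chr6:30741314-30741336, plus strand) is shown first with its seed in capitals. Below it stand the seed matches in the 3′ UTRs of Col6a2 and Col8a1, from the longest annotated UTR of each in GENCODE M21, with the matched bases in capitals.
mmu-miR-335-5p: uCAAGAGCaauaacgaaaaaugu
Col6a2: ggttatattaagGCTCTTGAgatgta
Col8a1: ttccgttcatctGCTCTTGgttgct
Matches searched were GCTCTTG (to bases 2 to 8), CTCTTGA (to bases 2 to 7, followed by A) and GCTCTTGA, which holds both. The sites start at base 749 of 1763 in the 3′ UTR of Col6a2 and base 1452 of 2653 in that of Col8a1. Of the tested collagen genes 11.5% had a match, against 23.9% of the 11438 tested genes with an annotated 3′ UTR, and 3.85% against 3.76% had the 8-base match. The median UTR length was 1032.5 bases for the collagen genes and 1370.5 bases for all. Col1a1, Col1a2 and Col3a1 had no match in these windows.

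No collagen gene was called between the mimics on either day, nor was any gene of the 11703 (0% called in each comparison by edgeR). At an unadjusted p below 0.05 there were 21 genes at day 6 and 59 at day 3, none of them a collagen gene, and DESeq2 called 0 genes on both days with 20 and 63 at that unadjusted level. With the block within each day edgeR called 0 genes at day 6 and 4 genes at day 3 (0.0342% of all tested, each lower), with 0 collagen genes among them. The collagen log2 changes lay between -0.38 and 0.17 at day 6 and between -0.32 and 0.32 at day 3. In the fit without a block all 26 intervals held 0 on both days, and their width differed among abundant genes too. At day 6 Col4a1 stood at log2 -0.03, 95% interval -0.29 to 0.22, unadjusted p = 0.782, adjusted p = 1, and Col3a1 at log2 -0.10, 95% interval -0.76 to 0.55, unadjusted p = 0.741, adjusted p = 1. Col1a2 stood at log2 -0.11, 95% interval -0.69 to 0.47, unadjusted p = 0.683, adjusted p = 1, and Col1a1 at log2 -0.19, 95% interval -0.94 to 0.56, unadjusted p = 0.588, adjusted p = 1. In this fit the intervals of the chains of types I and III were thus wider than that of Col4a1. Of the genes whose seed match is shown, Col6a2 stood at log2 0.03, 95% interval -0.30 to 0.36, unadjusted p = 0.824, adjusted p = 1 at day 6 and log2 -0.03, 95% interval -0.36 to 0.31, unadjusted p = 0.868, adjusted p = 1 at day 3. Col8a1 stood at log2 -0.38, 95% interval -1.71 to 0.96, unadjusted p = 0.546, adjusted p = 1 at day 6 and log2 -0.11, 95% interval -2.03 to 1.82, unadjusted p = 0.905, adjusted p = 1 at day 3. At day 6 the fitted change was below 0 for 21 of the 26 genes (80.8%, against 52.5% of all genes tested) and at day 3 for 15 (57.7%, against 50.4%). The median over the 26 genes was -0.06 at day 6 and -0.01 at day 3, against -0.01 and 0.00 over all genes. With the replicate block 1 of the 26 intervals left out 0 on each day (3.85%). In that fit 153 of 11703 genes at day 6 and 258 at day 3 had an unadjusted p below 0.05. With the block within each day 3 of the 26 left out 0 on each day. At day 6 this block gave intervals of similar width. They were -0.21 to 0.01 for Col1a2, -0.29 to -0.08 for Col1a1, -0.19 to 0.02 for Col3a1 and -0.14 to 0.07 for Col4a1. Col1a1 had unadjusted p = 0.00183 and adjusted p = 0.448 there.

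**Figure D5:**
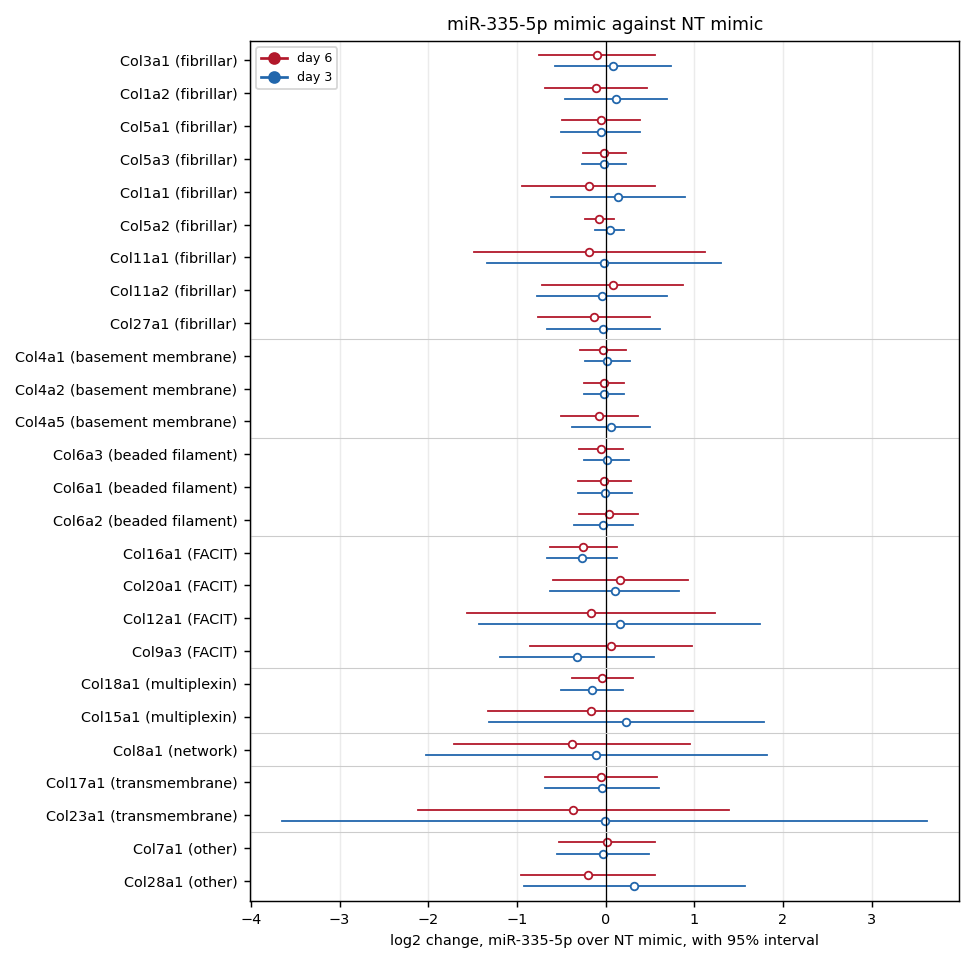
Fitted log2 change of the miR-335-5p mimic over the NT mimic (horizontal axis) with its 95% interval for the 26 collagen genes, day 6 above day 3. In this fit without a block every interval crosses 0, and the point estimates lie between -0.38 and 0.32.

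Col16a1 had the lowest p on both days. At day 6 it had 72.8, 76.0 and 96.1 CPM under miR-335-5p against 83.3, 93.1 and 115 CPM under the NT mimic, and at day 3 26.0, 19.5 and 27.8 CPM under miR-335-5p against 29.3, 24.4 and 34.6 CPM under the NT mimic. Within each replicate number the miR-335-5p library was the lower one on both days, though the groups overlap at day 6 and at day 3. The fit gave log2 -0.25, 95% interval -0.63 to 0.13, unadjusted p = 0.173, adjusted p = 1 at day 6 and log2 -0.27, 95% interval -0.66 to 0.13, unadjusted p = 0.164, adjusted p = 1 at day 3. With the replicate block within each day it gave log2 -0.25, 95% interval -0.36 to -0.14, unadjusted p = 0.000197, adjusted p = 0.237 at day 6 and log2 -0.27, 95% interval -0.41 to -0.13, unadjusted p = 0.000799, adjusted p = 0.261 at day 3, which did not pass after adjustment. In that fit 3 of the 26 genes (11.5%) had an unadjusted p below 0.05 on each day, against 5.07% of all genes at day 6 and 7.29% at day 3. They were Col16a1, Col1a1 and Col11a1 at day 6 and Col16a1, Col1a1 and Col18a1 at day 3. The difference had the same sign in all 3 replicate numbers for 11 genes at day 6 (42.3%, against 25.1% of all genes) and 8 at day 3 (30.8%, against 28.2%).

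Col1a1 had 1048, 929 and 1599 CPM under miR-335-5p against 1097, 1097 and 1889.7 CPM under the NT mimic at day 6, and 308, 225 and 469 CPM under miR-335-5p against 269, 211 and 432 CPM under the NT mimic at day 3. Within a replicate number the miR-335-5p library was the lower in 3 of 3 cases at day 6 and the higher in 3 of 3 at day 3. Col5a2 showed the same signs, Col3a1 was lower under miR-335-5p in 3 of 3 cases at day 6 and higher in 2 of 3 at day 3, and Col1a2 was higher with miR-335-5p in 1 of 3 cases at day 6 and in 3 of 3 at day 3. The difference between the days in the mimic effect on Col1a1 was log2 -0.33, 95% interval -1.39 to 0.74, unadjusted p = 0.514, adjusted p = 1 without the block and log2 -0.32, 95% interval -0.59 to -0.06, unadjusted p = 0.0209, adjusted p = 1 with it, and 0 collagen genes and 0 genes in all were called for this difference (29 of all genes at an unadjusted p below 0.05, and 30 by DESeq2, which also called 0). DESeq2 with the replicate block called 1 gene of all for it (0.00641%) and 0 collagen genes. With the block within each day edgeR called 0 genes for this difference. There Col1a1 had log2 -0.32, 95% interval -0.47 to -0.17, unadjusted p = 0.000312. Col1a2 (unadjusted p = 0.0139) and Col3a1 (unadjusted p = 0.0361) were below 0.05 in that fit too. With Col1a1 they were 3 of the 26 genes (11.5%), against 361 of 11703 genes in all at that unadjusted level. All of these collagen genes were named by the study for the effect of the mimic in these same samples. Their share is therefore no independent evidence that the mimic effect on collagen genes differed between the days. Next to Col16a1, the lowest p values between the mimics without a block were those of Col5a2 and Col8a1 at day 6 and Col18a1 and Col9a3 at day 3. Col18a1 had 118, 125 and 156 CPM under miR-335-5p against 129, 134 and 181 CPM under the NT mimic at day 3, which is log2 -0.15, 95% interval -0.50 to 0.19, unadjusted p = 0.355, adjusted p = 1. The same gene at day 6 had 239, 208 and 260.2 CPM under miR-335-5p against 262, 204 and 260.0 CPM under the NT mimic. Col9a3 was near the floor of the data, with 0.671, 0.780 and 0.938 CPM under miR-335-5p against 0.966, 0.763 and 1.27 CPM under the NT mimic at day 3.

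Collagen chains are modified, folded and trimmed by a set of enzymes before they form fibrils. Of 31 listed genes for collagen processing and crosslinking 26 were tested. Under miR-335-5p 8 rose and 3 fell between the days, and under the NT mimic 11 rose and 3 fell, with a median of log2 0.27 and 0.29. Of all genes tested, 18.2% rose and 16.5% fell under miR-335-5p, and 18.8% rose and 16.7% fell under the NT mimic. Serpinh1, the collagen chaperone, was at 666 ± 105 against 272 ± 39.8 CPM under miR-335-5p and 669 ± 80.9 against 257 ± 31.2 CPM under the NT mimic (day 6 first) and rose by log2 1.29 under miR-335-5p and 1.38 under the NT mimic. Pcolce, which enhances removal of the procollagen C-propeptide, rose by log2 1.71 under miR-335-5p and 1.80 under the NT mimic. Fkbp10, a prolyl isomerase for collagen, rose by log2 0.48 under miR-335-5p and 0.65 under the NT mimic. The falls were Lox, the lysyl oxidase that crosslinks fibrils, Plod2, a lysyl hydroxylase, and P3h4, a partner of lysyl hydroxylation. Lox was at 261 ± 37.2 against 524 ± 86.0 CPM under miR-335-5p and 308 ± 17.3 against 566 ± 92.0 CPM under the NT mimic, a change of log2 -1.01 under miR-335-5p and -0.88 under the NT mimic. Plod2 changed by log2 -0.84 under miR-335-5p and -1.07 under the NT mimic. Loxl1, Loxl2 and Loxl4 of the same oxidase family rose, with Loxl1 at log2 0.73 under miR-335-5p and 0.75 under the NT mimic. Their levels were below that of Lox. Under miR-335-5p Loxl1 was at 121 ± 15.5 against 72.5 ± 12.7 CPM and Loxl2 at 3.65 ± 0.475 against 0.542 ± 0.0731 CPM. Loxl4 was at 5.09 ± 1.17 against 1.92 ± 0.102 CPM there. Loxl3, at 16.2 ± 3.68 against 14.4 ± 3.66 CPM under miR-335-5p, was called in neither comparison. P4hb, the shared subunit of the prolyl 4-hydroxylases, and P4ha1 and P4ha2, its catalytic partners, were called in neither comparison.

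Of 10 listed receptors for collagen 7 were tested, and 5 rose and 0 fell with either mimic. For this list and those below, the shares of all genes tested were 18.2% higher and 16.5% lower under miR-335-5p. Under the NT mimic they were 18.8% and 16.7%. Mrc2, which takes up collagen for breakdown in the cell, was at 436 ± 45.9 against 197 ± 30.4 CPM under miR-335-5p and 469 ± 55.0 against 194 ± 37.0 CPM under the NT mimic, a change of log2 1.14 under miR-335-5p and 1.27 under the NT mimic. Ddr1 and Ddr2, kinases that bind triple-helical collagen, rose by log2 0.66 under miR-335-5p and 0.66 under the NT mimic and by log2 0.77 under miR-335-5p and 0.81 under the NT mimic. Itga1 and Itga11, integrin chains that bind collagen, were the other 2. In the list for collagen breakdown 9 of 14 genes were tested, of which 5 rose with either mimic and 1 fell under miR-335-5p and 0 under the NT mimic. Mmp14, the membrane-bound collagenase, rose by log2 1.83 under miR-335-5p and 1.97 under the NT mimic. Mmp2, the gelatinase that Mmp14 activates, was at 482 ± 214 against 513 ± 197 CPM under miR-335-5p and 569 ± 259 against 598 ± 177 CPM under the NT mimic and did not pass. Mmp9, Mmp13, Ctsk and Timp4 rose at low levels, and the fall was that of Mmp15. Timp4 is listed here as an inhibitor of metalloproteinases. Mmp15 was also low, at 0.151 ± 0.0508 against 1.01 ± 0.468 CPM under miR-335-5p. Of 8 fibril-binding proteoglycans 7 were tested, and 4 rose and 0 fell with either mimic. Dcn, decorin, was at 20.5 ± 12.2 against 3.14 ± 1.13 CPM under miR-335-5p and 25.1 ± 13.8 against 3.22 ± 1.09 CPM under the NT mimic, and Fmod, Lum and Prelp were the other 3. Bgn, biglycan, held most of the CPM of this list, at 1302 ± 275 against 1781 ± 251 CPM under miR-335-5p and 1273 ± 269 against 1547 ± 133 CPM under the NT mimic, and did not pass (log2 -0.45, adjusted p = 0.0563 under miR-335-5p and log2 -0.28, adjusted p = 0.217 under the NT mimic). The list summed to 1332 to 1879 CPM at day 6 against 1625 to 2129.7 CPM at day 3 under miR-335-5p, and 1332 to 1956 against 1529.9 to 1815 CPM under the NT mimic, with overlap of the days. No gene of these 4 lists was called between the mimics on either day.

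The remaining 16 collagen genes did not pass the filter, and the highest count of any of them in a library was 12. Col9a2 and Col26a1 were at 0 in all 12 libraries, a count of 0 that allows up to 3 counts per library. Col9a1, a FACIT chain of cartilage, had 11, 2 and 2 counts at day 6 under miR-335-5p and 4, 5 and 4 under the NT mimic, against 0, 0 and 0 at day 3 under miR-335-5p and 0, 1 and 0 under the NT mimic. Col14a1, a FACIT collagen of skin and tendon, had 5, 2 and 7 counts against 2, 0 and 0 under miR-335-5p, and 10, 5 and 3 against 0, 0 and 0 under the NT mimic, again with day 6 first. Col8a2, partner of Col8a1, had 0 to 2 counts at day 6 and 1 to 5 at day 3. Col4a3, Col4a4, Col6a4, Col6a5, Col6a6, Col10a1, Col19a1, Col22a1 and the fibrillar Col2a1 and Col24a1 had no more than 3 counts in any library, and Col4a6 is given above. Col10a1, which marks hypertrophic cartilage, and Col2a1 were among them. At this depth these genes cannot be compared.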

How the data were processed

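Gene expression was measured by RNA-seq in 12 libraries of 3T3-L1 cells, 3 in each of 4 groups taken from the labels. The authors deposited 1 table of estimated counts per gene, with no scaling to depth, of which 3.37% were not whole (tolerance 1e-06). HISAT2 2.2.1 and RSEM 1.3.1 stand in the submitters' processing notes, with mm39 as the build and no role for each. The gene annotation and strand setting were not given in the sources used here. Such counts share reads among transcripts, and here they were rounded to whole numbers. Total counts were 17690656 to 18936779 per library, and genes of few counts have wide intervals. Gene IDs were matched to RefSeq symbols (GRCm38.p6) for 16387 genes, while 27 were not matched, and lengths and 3′ UTRs came from GENCODE M21. Because these builds differ from mm39, no position was taken from one to the other.

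Counts were fitted with edgeR 4.0.16 (R 4.3.3), with TMM scaling, the filterByExpr filter by group and a robust quasi-likelihood test over all 12 libraries in 1 fit without a block. The p-values were adjusted by Benjamini and Hochberg over 11703 genes, and genes with an adjusted p below 0.01 were called, as in the study's own threshold. CPM were scaled by TMM. Intervals are 95% confidence intervals of the fitted log2 change, with a width set by the spread between libraries. In the fit without a block they do not use the pairing by replicate number. Alternatives were a replicate block, a block within each day, DESeq2 1.42.0 with and without the block, size factors in place of TMM, no filter, other gene lengths, CPM without TMM, and leaving out each library. Scripts were tested on simulated data with 200 changed genes.

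Replicate numbers in the labels paired the samples. The residuals of same-numbered libraries correlated at 0.485 to 0.825 within a day (6 pairs) and 0.253 to 0.541 across days (12 pairs).

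Library values were given for the 10 genes of highest mean CPM, the 5 largest called changes each way under the NT mimic at 1 CPM or more, Col1a1, Col1a2 and Col3a1, and the 3 lowest p on each day for the mimic, and further genes were added where a result turned on them. The members and gene lists were chosen with earlier results of these data known. The position and sequence of 1 seed match are not reported here.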

Additional observations from a re-analysis of the deposited data

How the results depend on the processing

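The collagen counts of day 6 against day 3 moved most with the replicate block. Under miR-335-5p 15 genes (9 higher) became 23 (16 higher) with the replicate block, 24 (16 higher) with the block within each day and 24 (17 higher) in DESeq2 with the block. Under the NT mimic 16 genes (11 higher) became 25 (18 higher) in DESeq2 with the block, which tested 30 collagen genes. Beside the genes named with their blocked values, the replicate block changed no other collagen call. Leaving out each library gave 12 to 16 called genes under miR-335-5p (8 to 10 higher, 4 to 7 lower) and 12 to 18 under the NT mimic (8 to 11 higher, 4 to 7 lower), 0 to 0 for the mimic on either day and for the difference of the days, and 9 to 14 for the replicate number. The NT call of Col8a1 was also lost with size factors in place of TMM and with no filter. No alternative reversed a called direction. Without TMM 3 summed levels moved by more than 1 SD. With the longest transcript in place of merged exons 47 values per kilobase moved by more than 1 SD and 37 did not. Depth limits the genes below about 1 CPM, where a few counts set the value.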
